A study of Mus musculus with 18 samples.

Results

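The TNF superfamily ligands are trimeric cytokines that bind receptors of the TNF receptor superfamily, and 10 of their genes were followed here in mouse bone marrow-derived macrophages (BMMs). The members were Tnf, Tnfsf4, Tnfsf8, Tnfsf9, Tnfsf10, Tnfsf12, Tnfsf13, Tnfsf13b, Tnfsf14 and Tnfsf15, taken by symbol, 10 of the 38887 genes listed in every library. The study asked what loss or overexpression of GILZ (Tsc22d3), a glucocorticoid-inducible leucine zipper protein, does to gene expression in BMMs with and without LPS. RNA-seq was made from 18 libraries in 6 groups of 3, from female C57BL/6J mice of 10 to 23 weeks. WT cells came from Lyz2-Cre mice, GILZ KO cells from mice that also carried a floxed Gilz exon 6, and GILZ TG cells from mice that carried a Gilz-1 cDNA behind a floxed stop cassette in ROSA26, so that Cre under the myeloid Lyz2 promoter was part of the description of every genotype. BMMs were grown for 6 days with 50 ng/ml M-CSF and were left untreated or given 100 ng/ml LPS for 4 h. LPS is a bacterial cell wall component sensed by the receptor TLR4.

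Most ligands of this family are made as type II membrane proteins, and several are released by proteases. TNF signals through TNFR1 and TNFR2 and drives inflammation or cell death, TNFSF10 (TRAIL) binds death receptors, and TNFSF15 (TL1A) costimulates T cells through DR3. TNFSF4 (OX40L), TNFSF8 (CD30L), TNFSF9 (4-1BBL) and TNFSF14 (LIGHT) are costimulatory ligands of antigen-presenting cells, TNFSF12 (TWEAK) acts on tissue cells through FN14, and TNFSF13 (APRIL) with TNFSF13B (BAFF) sustain B lineage cells. In macrophages, Tnf is a primary target of NF-kappaB downstream of TLR4, and Tnfsf10 is known as an interferon-stimulated gene.

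The libraries held 14583055 to 38557029 counts assigned to genes. The target gene Tsc22d3 stood at 14.9 to 18.8 TPM (a transcript level normalised for transcript length and library depth) in untreated WT, at 1.89 to 2.81 TPM in GILZ KO and at 152 to 159.8 TPM in GILZ TG. After LPS it was at 4.56 to 5.81 TPM in WT, 2.5 to 3.28 TPM in GILZ KO and 127 to 141 TPM in GILZ TG, so that GILZ KO differed from WT by -2.74 in log2 untreated (adjusted p = 2.16e-05 with edgeR) and by -0.69 after LPS (adjusted p = 0.1497), where it did not pass. Lyz2, the locus that carries Cre in the methods, was at 11048 to 15401 TPM in untreated WT and at 17.2 to 70.2 TPM in all libraries of GILZ KO and GILZ TG, so that the Lyz2 level and the genotype cannot be told apart in any comparison with WT. All 8 macrophage markers were found in every library, with summed levels of 3971 to 5047 TPM. Of 8 T and NK cell markers, 3 were at 0 in every library and the list summed to 1.44 to 3.74 TPM. The endothelial list summed to 2.92 to 12.5 TPM and the dendritic cell list to 3.81 to 22.2 TPM. GILZ TG replicate 3 had the highest dendritic cell sum in both treatments. It was 22.2 TPM untreated, against at most 13.79 TPM in the other untreated libraries. After LPS it was 13.65 TPM, against at most 7.46 TPM in the other LPS libraries. GILZ TG replicates 1 and 2 stood apart in both treatments: their 8 fibroblast markers summed to 84.3 to 119 TPM against 5.10 to 24.98 TPM in the other 14 libraries, their 8 neutrophil lineage markers to 187 to 516 TPM against 20.7 to 83.5 TPM, and their 8 B lineage markers to 81.8 to 158 TPM against 16.9 to 36.1 TPM. In bulk RNA, fewer cells of a type and less RNA per cell cannot be told apart. Some results with GILZ TG are therefore also given with replicate 3 as the only GILZ TG library, and the others are not shown in that setting.

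Several members lie next to each other in the mouse genome (GRCm38, GENCODE annotation). Tnf (chr17:35199381-35202007, minus strand) lies between Ltb and Lta, the lymphotoxin genes, with gaps of 3060 and 1157 bases. Tnfsf9 (chr17:57105325-57107757, plus strand) and Tnfsf14 (chr17:57189492-57194177, minus strand) flank Cd70. Tnfsf15 (chr4:63727084-63745113) and Tnfsf8 (chr4:63831308-63861347), both on the minus strand, are 86194 bases apart. Tnfsf4 (chr1:161395409-161418410, plus strand) precedes Tnfsf18, the ligand of GITR. Tnfsf13 (chr11:69682846-69685784) and Tnfsf12 (chr11:69686250-69695849) are 465 bases apart on the minus strand, and both lie inside Tnfsfm13 (chr11:69682577-69696098), a read-through gene of the pair, while the antisense gene Tnfsf13os covers Tnfsf13 and part of Tnfsf12 on the other strand. Tnfsf10 (chr3:27317028-27342427) and Tnfsf13b (chr8:10006467-10039072) lie apart from other ligand genes on the plus strand.

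RefSeq promoter windows (GRCm38.p6, 250 bases before to 50 after an annotated start) were found for 7 of the 10 members, and the 250 upstream bases are shown for the 4 members among them that rose most after LPS. Capitals mark matches, on either strand, to TATAAA or to GAAANNGAA, the core of an interferon-stimulated response element; matches to GGGANTTTC, GGGGNTTTC and GGGANTTCC, which resemble kappa-B sites, would also be in capitals.
Tnf (chr17:35202008-35202257, minus strand): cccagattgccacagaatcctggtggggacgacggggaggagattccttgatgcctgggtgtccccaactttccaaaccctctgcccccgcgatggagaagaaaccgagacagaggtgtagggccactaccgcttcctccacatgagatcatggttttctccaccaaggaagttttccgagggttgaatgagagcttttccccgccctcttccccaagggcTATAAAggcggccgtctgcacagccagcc
Tnfsf10 (chr3:27316827-27317076, plus strand): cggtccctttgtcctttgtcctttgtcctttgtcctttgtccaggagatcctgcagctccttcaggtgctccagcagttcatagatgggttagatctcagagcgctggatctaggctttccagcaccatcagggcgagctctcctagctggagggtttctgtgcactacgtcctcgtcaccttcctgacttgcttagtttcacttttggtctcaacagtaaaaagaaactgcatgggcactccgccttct
Tnfsf15 (chr4:63745060-63745309, minus strand): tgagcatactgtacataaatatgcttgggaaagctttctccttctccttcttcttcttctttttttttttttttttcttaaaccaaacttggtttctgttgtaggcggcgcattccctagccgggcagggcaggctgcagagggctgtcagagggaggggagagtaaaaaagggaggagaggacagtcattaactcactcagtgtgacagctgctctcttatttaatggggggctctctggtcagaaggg
Tnfsf8 (chr4:63861285-63861534, minus strand): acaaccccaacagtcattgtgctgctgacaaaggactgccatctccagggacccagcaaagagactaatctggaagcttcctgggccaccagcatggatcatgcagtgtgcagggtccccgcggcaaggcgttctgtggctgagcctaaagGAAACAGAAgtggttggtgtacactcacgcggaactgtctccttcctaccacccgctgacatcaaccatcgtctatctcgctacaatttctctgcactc
The window of Tnf held the TATA box letters beginning 29 bases before the start, and that of Tnfsf8 held GAAACAGAA beginning 99 bases before it. TATAAA was present in 13.6% of all 32851 promoter windows, GAAANNGAA in 8.56% and any of the 3 kappa-B-like patterns in 3.69%. Tnfsf10, Tnfsf15, Tnfsf13 and Tnfsf14 held none of these letters in their windows, and 1 of 2 windows of Tnfsf13b held GAAAGTGAA beginning 16 bases before its start.

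In untreated WT BMMs Tnf was the most abundant member, with a mean of 143 ± 14.8 TPM (SD, n = 3), and LPS changed the order below it. Tnfsf12 followed at 70.2 ± 3.45 TPM, and Tnfsf13 (20.9 ± 2.31), Tnfsf9 (16.6 ± 1.48) and Tnfsf14 (14.58 ± 0.409) came next. Tnfsf13 and Tnfsf9 overlapped in range, whereas Tnfsf9 and Tnfsf14 did not. Tnfsf4 had 4.36 ± 1.77 TPM, and Tnfsf13b (0.830), Tnfsf10 (0.270), Tnfsf8 (0.130) and Tnfsf15 (0.0567) were all below 1 TPM without overlap between neighbours. After LPS, Tnfsf10 took the second place at 129 ± 12.5 TPM, Tnfsf4 the third at 45.4 ± 6.44 TPM and Tnfsf15 the sixth at 12.8 ± 4.92 TPM, while Tnfsf14 fell to the ninth place at 1.85 ± 0.285 TPM. Tnfsf4 and Tnfsf12, Tnfsf9 and Tnfsf15, and Tnfsf15 and Tnfsf13 then overlapped between neighbours. In GILZ KO and GILZ TG the order after LPS was the same as in WT. Before LPS it was the same in GILZ TG, and in GILZ KO only Tnfsf14 and Tnfsf9, whose ranges overlapped there, changed places. The 10 members summed to 271 ± 13.7 TPM in untreated WT and to 2283 ± 123 TPM after LPS, and the share of Tnf in that sum went from 52.7% to 88.5%. The sums were 280.5 and 2470 TPM in GILZ KO and 327 and 2412 TPM in GILZ TG.

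**Figure D1:**
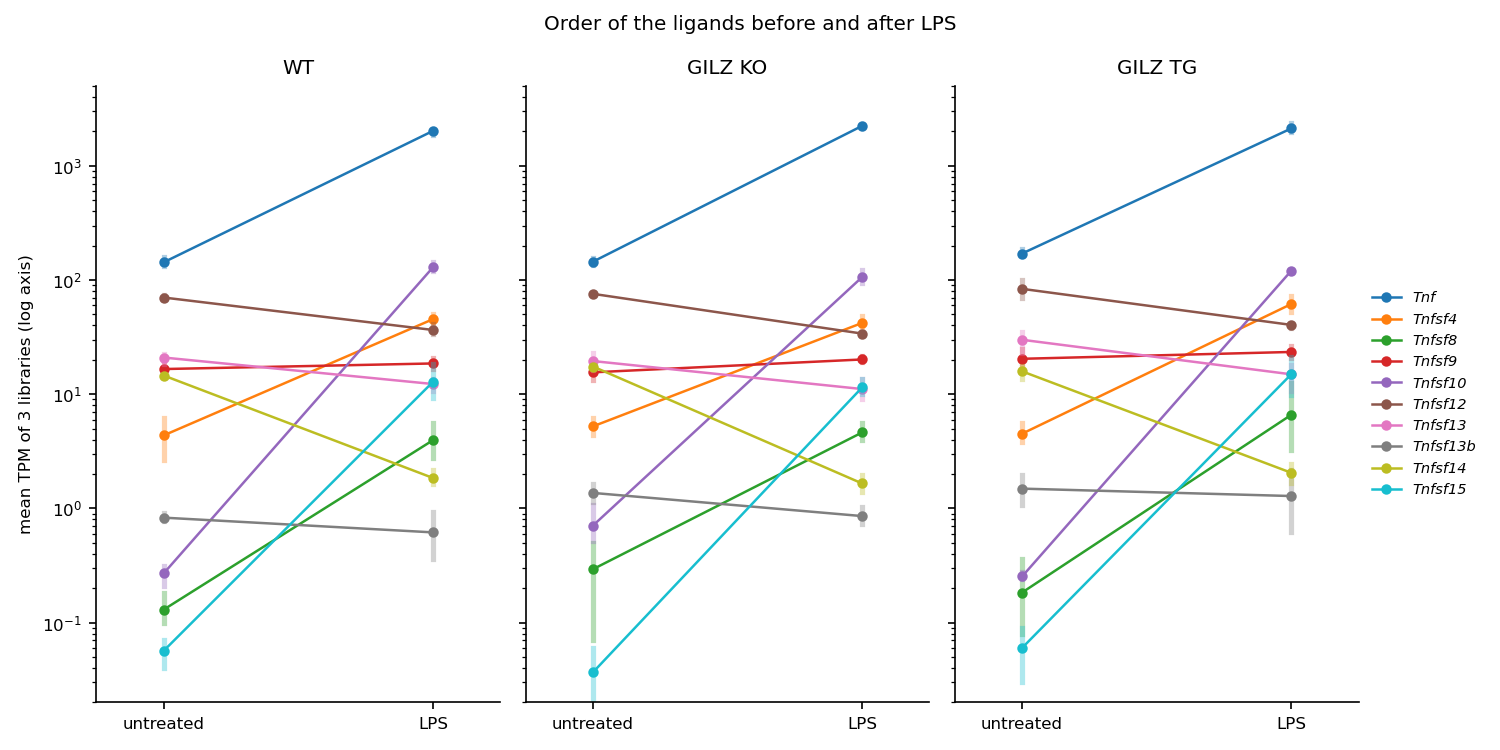
Mean TPM of each ligand in untreated and LPS-treated BMMs of WT, GILZ KO and GILZ TG, on a log axis, with 1 panel a genotype and shaded bars for the range of 3 libraries (a bar that reaches the foot of the axis includes a library at 0). Tnf was highest in all 6 groups, Tnfsf10 rose to the second place and Tnfsf14 fell to the ninth.

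The first comparison asked how LPS changed each ligand within a genotype. Tnf, Tnfsf4, Tnfsf8, Tnfsf9, Tnfsf10 and Tnfsf15 rose in WT, GILZ KO and GILZ TG, Tnfsf12 and Tnfsf14 fell in all 3, and Tnfsf13 and Tnfsf13b did not pass the threshold in any. With the replicate number as a block, Tnfsf13 passed in GILZ TG. Thus 8 of 10 members passed an adjusted p of 0.05 (edgeR quasi-likelihood test, Benjamini-Hochberg over 13169 genes) in each genotype, against 68.6% of all genes in WT, 68.5% in GILZ KO and 68.7% in GILZ TG. By direction, 6 of 10 members were higher against 33.5%, 33.2% and 33.6% of all genes, and 2 were lower against 35.1%, 35.4% and 35.1%. Tnfsf15 entered the test only through the LPS libraries, where it is high. The median log2 fold change of the members was 2.40 in WT, 2.33 in GILZ KO and 2.55 in GILZ TG, beside -0.02 over all genes tested in each. In TPM, untreated and LPS libraries did not overlap for 8 members in WT, 10 in GILZ KO and 8 in GILZ TG. The same held for 10687, 11025 and 10660 of the 13169 genes.

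The scale mattered for small changes. On edgeR's TMM scale the median gene moved by -0.02, whereas on log2(TPM + 1) it moved by -0.51 in WT, -0.52 in GILZ KO and -0.51 in GILZ TG, and the split of higher to lower calls in WT was 4415 to 4622 on the first scale and 2114 to 8556 on the second. For genes of at least 1 TPM on average, the median log2 ratio of mean TPM was -0.63 in WT, -0.65 in GILZ KO and -0.63 in GILZ TG. TPM levels after LPS are therefore lower, by about this last shift, than the fold changes of the test would give. Members that changed little have a direction that depends on the scale.

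Tnf encodes the ligand that macrophages release soon after contact with LPS. It had 131, 138 and 159.6 TPM in the 3 untreated WT libraries and 1870.1, 2101 and 2093 TPM in the 3 WT libraries with LPS. In GILZ KO it went from 142, 156 and 136 TPM to 2306, 2268 and 2139 TPM, and in GILZ TG from 163, 163 and 185 TPM to 2042, 1959 and 2375 TPM. Every LPS library was far above every untreated library, and after LPS all GILZ KO libraries were above all WT libraries, while GILZ TG overlapped both. The test between GILZ KO and WT after LPS is given with the genotypes. The ratio of mean TPM was 14.1 in WT, 15.5 in GILZ KO and 12.5 in GILZ TG. The log2 fold change of the test was 4.45 (SE 0.12, adjusted p = 3.42e-15 with edgeR) in WT, 4.59 (SE 0.12, adjusted p = 2.96e-15) in GILZ KO and 4.28 (SE 0.12, adjusted p = 5.19e-15) in GILZ TG.

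Tnfsf10, the death ligand TRAIL, had the largest fold change of the 10 in WT and GILZ TG. Its level was 0.21, 0.31 and 0.29 TPM in untreated WT and 143, 119.9 and 124 TPM after LPS. In GILZ KO it was 1.07, 0.52 and 0.53 TPM before and 94.4, 122 and 102 TPM after. In GILZ TG it was 0.24, 0.24 and 0.28 TPM before and 119.7, 122 and 121 TPM after. The untreated GILZ KO libraries were all above the untreated libraries of the other genotypes, and 2 of the 3 GILZ KO libraries were below all WT libraries after LPS. Its log2 fold change was 9.36 (SE 0.17, adjusted p = 4.79e-17 with edgeR) in WT, 8.03 (SE 0.16, adjusted p = 1.16e-16) in GILZ KO and 9.32 (SE 0.17, adjusted p = 5.47e-17) in GILZ TG. The untreated levels rested on 14 to 47 counts a library and those after LPS on 3613 to 10933.

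Tnfsf15 encodes TL1A, a ligand made by stimulated antigen-presenting cells. It was close to 0 in untreated BMMs, with 0.06, 0.07 and 0.04 TPM in WT, 0.06, 0.00 and 0.05 TPM in GILZ KO and 0.03, 0.06 and 0.09 TPM in GILZ TG, from 0 to 4 counts a library. After LPS it had 9.27, 10.8 and 18.4 TPM in WT, 9.97, 13.5 and 10.97 TPM in GILZ KO and 9.76, 13.9 and 21.3 TPM in GILZ TG. No untreated library came near an LPS library. The summed counts of the 3 libraries went from 9 to 1772 in WT, from 5 to 1087 in GILZ KO and from 8 to 2349 in GILZ TG. The fitted log2 fold changes of 8.36, 8.69 and 8.57 (SE 0.48, 0.53 and 0.48, adjusted p = 6.04e-11, 1.57e-10 and 5.26e-11 with edgeR) rest on those few untreated counts.

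**Figure D2:**
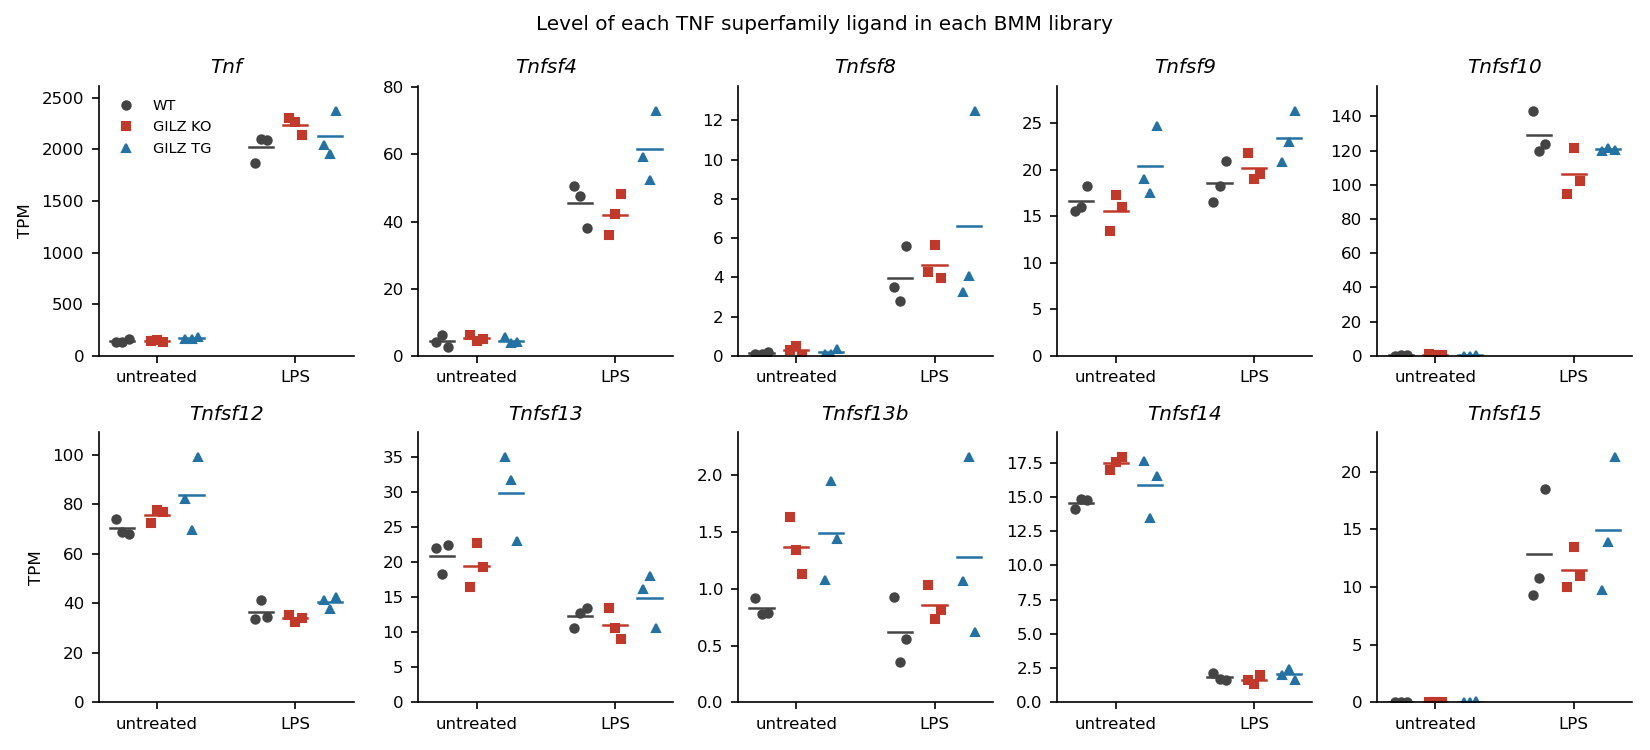
TPM of each of the 10 ligands in each of the 18 libraries, 1 panel a ligand on a scale of its own, with untreated and LPS along the horizontal axis, symbols for the libraries of WT, GILZ KO and GILZ TG and lines for group means. Tnf, Tnfsf4, Tnfsf8, Tnfsf10 and Tnfsf15 separate completely by treatment upward and Tnfsf12 and Tnfsf14 downward, and Tnfsf13 separates downward within each genotype.

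The costimulatory ligands split, with Tnfsf4, Tnfsf8 and Tnfsf9 higher and Tnfsf14 lower after LPS. Tnfsf4, which engages OX40 on T cells, was at 4.27, 6.17 and 2.64 TPM in untreated WT and at 50.5, 47.5 and 38.2 TPM after LPS. GILZ KO went from 6.22, 4.43 and 5.03 TPM to 35.9, 42.1 and 48.2 TPM, and GILZ TG from 5.60, 3.79 and 4.14 TPM to 59.3, 52.5 and 73.1 TPM. All 3 GILZ TG libraries were above all WT and GILZ KO libraries after LPS. The log2 fold change was 4.00 in WT, 3.64 in GILZ KO and 4.42 in GILZ TG (SE 0.24 in each, adjusted p = 9.18e-11, 3.98e-10 and 2.95e-11 with edgeR).

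Tnfsf8, the ligand of CD30, began at 0.10, 0.11 and 0.18 TPM in WT, 0.31, 0.50 and 0.07 TPM in GILZ KO and 0.11, 0.08 and 0.36 TPM in GILZ TG, from 3 to 23 counts a library. With LPS it was at 3.49, 2.79 and 5.59 TPM in WT, 4.26, 5.63 and 3.99 TPM in GILZ KO and 3.26, 4.05 and 12.5 TPM in GILZ TG. The treatments did not overlap, and GILZ TG replicate 3 was more than any other library. Tnfsf8 changed by a log2 fold change of 5.54 (SE 0.66, adjusted p = 8.96e-07 with edgeR) in WT, 4.57 (SE 0.61, adjusted p = 3.44e-06) in GILZ KO and 5.77 (SE 0.63, adjusted p = 3.35e-07) in GILZ TG, the least precise of the members that rose.

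Tnfsf9, the ligand of 4-1BB, changed least among the members that passed upward. It had 15.6, 16.0 and 18.3 TPM in untreated WT and 16.6, 18.3 and 20.9 TPM after LPS, 13.4, 17.3 and 16.0 TPM and then 21.8, 19.1 and 19.6 TPM in GILZ KO, and 19.0, 17.5 and 24.8 TPM and then 20.9, 23.1 and 26.4 TPM in GILZ TG. In TPM the treatments overlapped in WT and GILZ TG and did not in GILZ KO. On the TMM scale the log2 fold change was 0.79 (SE 0.15, adjusted p = 0.000121 with edgeR) in WT, 1.01 (SE 0.15, adjusted p = 1.23e-05) in GILZ KO and 0.83 (SE 0.14, adjusted p = 6.47e-05) in GILZ TG. On log2(TPM + 1) the change was 0.15 in WT (adjusted p = 0.292 with limma) and 0.20 in GILZ TG (adjusted p = 0.168), neither past the threshold.

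Tnfsf14, the ligand LIGHT, fell in every genotype. It was at 14.1, 14.9 and 14.8 TPM in untreated WT and at 2.17, 1.74 and 1.63 TPM after LPS, at 16.96, 17.6 and 17.9 TPM and then 1.60, 1.38 and 1.98 TPM in GILZ KO, and at 17.6, 13.5 and 16.5 TPM and then 2.02, 2.47 and 1.66 TPM in GILZ TG. No LPS library reached the lowest untreated library. The untreated mean was 7.89 times the LPS mean in WT, 10.6 times in GILZ KO and 7.74 times in GILZ TG. In the test the log2 fold change was -2.35 (SE 0.14, adjusted p = 1.58e-10 with edgeR), -2.77 (SE 0.15, adjusted p = 4.80e-11) and -2.30 (SE 0.14, adjusted p = 1.33e-10). Its chromosome 17 neighbour Tnfsf9 thus moved in the opposite direction on the TMM scale.

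**Figure D3:**
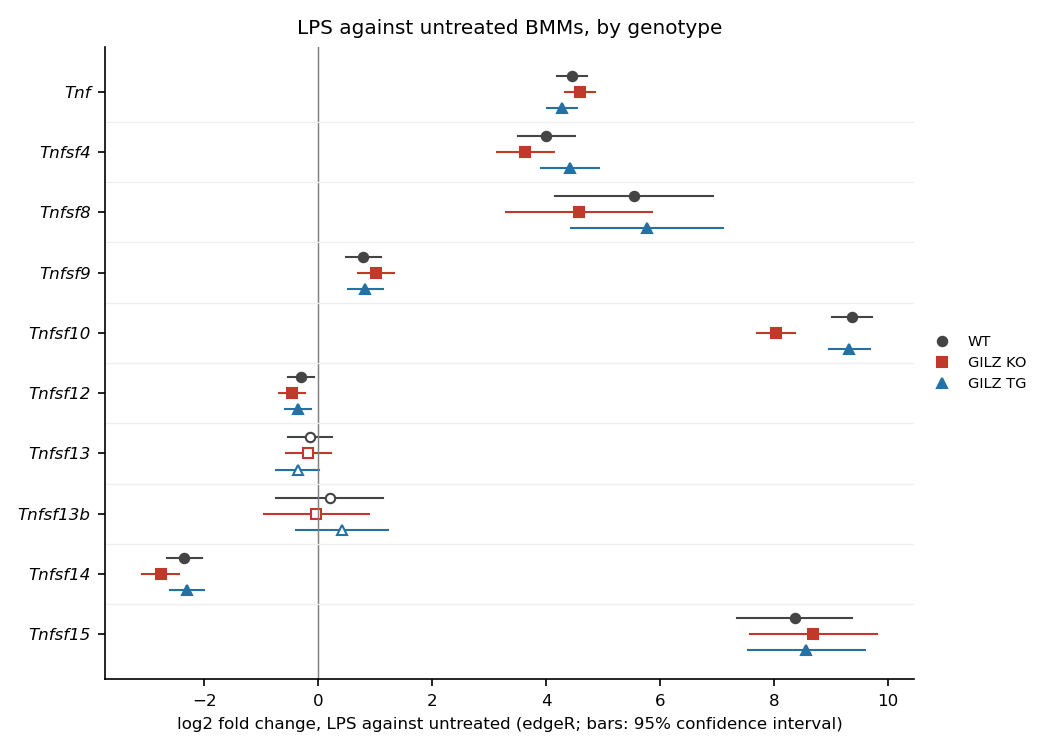
Log2 fold change of LPS against untreated (edgeR, TMM scale, with 95% confidence intervals) for the 10 ligands in WT, GILZ KO and GILZ TG, with filled symbols for an adjusted p under 0.05. The 6 ligands above 0 and the 2 below it passed in all 3 genotypes, and the intervals of Tnfsf13 and Tnfsf13b include 0.

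Tnfsf12, Tnfsf13 and Tnfsf13b, which encode TWEAK, APRIL and BAFF, showed at most small changes. Tnfsf12 was at 74.2, 68.7 and 67.8 TPM in untreated WT and at 33.5, 41.5 and 34.5 TPM after LPS. It was at 72.4, 77.5 and 77.1 TPM and then 35.2, 32.5 and 34.2 TPM in GILZ KO, and at 82.3, 69.7 and 99.1 TPM and then 41.2, 37.6 and 42.4 TPM in GILZ TG. The treatments did not overlap in TPM, where the median gene also fell. The log2 fold change on the TMM scale was -0.30 (SE 0.11, adjusted p = 0.0221 with edgeR) in WT, -0.46 (SE 0.11, adjusted p = 0.00127) in GILZ KO and -0.35 (SE 0.11, adjusted p = 0.00716) in GILZ TG. Without WT LPS replicate 1 or 3 the WT change was -0.24 (adjusted p = 0.0929) or -0.25 (adjusted p = 0.0888) and did not pass.

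Tnfsf13 had 22.1, 18.3 and 22.4 TPM in untreated WT and 10.6, 12.7 and 13.5 TPM after LPS, 16.4, 22.8 and 19.3 TPM and then 13.5, 10.7 and 9.12 TPM in GILZ KO, and 35.04, 31.8 and 23.1 TPM and then 16.2, 18.02 and 10.6 TPM in GILZ TG. The treatments did not overlap in TPM in any genotype. On the TMM scale its log2 fold change was -0.14 (adjusted p = 0.496 with edgeR) in WT, -0.17 (adjusted p = 0.428) in GILZ KO and -0.36 (adjusted p = 0.0757) in GILZ TG. In GILZ TG, where untreated and LPS libraries of the same number deviated together, the fit with a replicate block gave -0.38 (adjusted p = 0.0161 with edgeR), and the change also passed without untreated replicate 3 (-0.52, adjusted p = 0.0149) or LPS replicate 2 (-0.48, adjusted p = 0.0421). On log2(TPM + 1) it was -0.73, -0.77 and -0.97, past the threshold in each (adjusted p = 0.00265, 0.00174 and 0.000237 with limma), on a scale whose median gene fell by 0.51 to 0.52. Among genes of at least 1 TPM on average, the median log2 ratio of mean TPM was -0.63 to -0.65. The read-through gene Tnfsfm13 had means of 19.0, 16.7 and 23.2 TPM in the untreated groups and 11.03, 11.2 and 14.7 TPM after LPS. Of the 18 libraries, 17 gave Tnfsf12 and 18 gave Tnfsf13 a count that was not whole within 0.005, as happens when a read is shared among overlapping genes, and their values are uncertain. The strand setting of the counting is not given in the sources used here, so reads of Tnfsf13os could not be set apart either.

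Tnfsf13b was at the lower limit of what these libraries resolve, with 10 to 27 counts in untreated and 4 to 34 in LPS libraries. It had 0.92, 0.78 and 0.79 TPM in untreated WT and 0.93, 0.36 and 0.56 TPM after LPS, 1.63, 1.34 and 1.13 TPM and then 1.03, 0.73 and 0.81 TPM in GILZ KO, and 1.08, 1.95 and 1.44 TPM and then 1.07, 2.16 and 0.62 TPM in GILZ TG. The log2 fold change was 0.20 (SE 0.44, adjusted p = 0.706 with edgeR), -0.03 (SE 0.44, adjusted p = 0.954) and 0.42 (SE 0.38, adjusted p = 0.345), and its sign depends on the scale: in WT and GILZ TG it was below 0 on log2(TPM + 1). A change of either direction was not detectable at this depth.

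The second comparison asked whether the genotypes differed in any ligand, untreated or after LPS. No member passed the threshold in any of the 6 contrasts (edgeR, 9 members tested untreated, 10 after LPS), against a background of 0.0951% of genes called for untreated GILZ KO against WT, 0.642% for GILZ TG against WT and 4.94% for GILZ KO against GILZ TG, and of 0.0822%, 0.460% and 2.60% in the same contrasts after LPS. At an unadjusted p under 0.05 there were 1, 4 and 4 of 9 members untreated and 1, 3 and 3 of 10 after LPS. Of all genes tested, 1211, 1780 and 3106 of 12621 were under it untreated. After LPS it was 1171, 1852 and 2328 of 12164. DESeq2 called Tnfsf13 in GILZ KO against GILZ TG untreated and Tnfsf4 in the same contrast after LPS, and no member in the other 4. Tnfsf15 was not tested untreated because its counts were too low there.

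Tnf, measured with narrow intervals, gave a log2 difference of -0.03 between untreated GILZ KO and WT (95% confidence interval -0.26 to 0.20) and of 0.14 after LPS (-0.07 to 0.35, adjusted p = 0.676 with edgeR), where the TPM ranges did not overlap. Between GILZ TG and WT the untreated difference was 0.24 (0.01 to 0.47, adjusted p = 0.326 with edgeR). The 3 untreated GILZ TG libraries were all above the 3 WT libraries in TPM.

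Tnfsf13, the ligand APRIL, was 31.8 TPM or more in GILZ TG replicates 1 and 2 and 23.1 TPM in replicate 3, while no untreated WT or GILZ KO library exceeded 22.8 TPM. The log2 difference of GILZ KO against GILZ TG was -0.64 (SE 0.16, 95% confidence interval -1.004 to -0.28, adjusted p = 0.0518 with edgeR and 0.00618 with DESeq2), and that of GILZ TG against WT was 0.50 (SE 0.16, adjusted p = 0.194). GILZ TG replicates 1 and 2 are the libraries with summed fibroblast, neutrophil and B lineage markers above the rest, and their part in the result was not tested. With replicate 3 as the only GILZ TG library, assumed to vary like the other groups, the differences were -0.29 (adjusted p = 0.430) and 0.15 (adjusted p = 0.816). Without untreated GILZ TG replicate 3 they were -0.80 (adjusted p = 0.00678) and 0.65 (adjusted p = 0.0240) with edgeR. The first contrast was also past the threshold with all libraries in DESeq2, as given above, and in edgeR without the filter on low counts (adjusted p = 0.0194). After LPS the difference of GILZ KO against GILZ TG was -0.43 (adjusted p = 0.220), and without GILZ TG replicate 3 it was -0.60 (adjusted p = 0.0220).

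Tnfsf10 was higher in each untreated GILZ KO library than in the libraries of the other genotypes, and did not pass the threshold. The log2 difference was 0.98 against WT (SE 0.28, 95% confidence interval 0.35 to 1.61, adjusted p = 0.370 with edgeR) and 1.03 against GILZ TG (SE 0.29, 0.39 to 1.67, adjusted p = 0.0660), and 1.05 (adjusted p = 0.0395) in the fit of all 18 libraries. After LPS it had the opposite sign against WT, at -0.31 (SE 0.10, -0.54 to -0.09, adjusted p = 0.372).

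Tnfsf4 was higher in GILZ TG than in GILZ KO after LPS in every library, with a log2 difference of GILZ KO against GILZ TG of -0.56 (SE 0.16, 95% confidence interval -0.92 to -0.20, adjusted p = 0.0934 with edgeR and 0.0212 with DESeq2). Against WT, GILZ TG differed by 0.44 (SE 0.16, adjusted p = 0.219). Tnfsf8 in GILZ TG after LPS gave 0.71 against WT (adjusted p = 0.495), -0.14 without GILZ TG replicate 3 and 1.69 (adjusted p = 0.0351) with that library alone. For Tnfsf9, Tnfsf12 and Tnfsf13b the largest differences between genotypes were -0.43 for Tnfsf9 (GILZ KO against GILZ TG, untreated, adjusted p = 0.128), -0.27 for Tnfsf12 (the same contrast after LPS, adjusted p = 0.177) and 1.07 for Tnfsf13b (GILZ TG against WT after LPS, adjusted p = 0.327), all by edgeR. Tnfsf14 gave 0.22 between untreated GILZ KO and WT (adjusted p = 0.522 with edgeR), where all GILZ KO libraries were above all WT libraries in TPM, and -0.32 between GILZ KO and GILZ TG after LPS (adjusted p = 0.478). Tnfsf15, tested after LPS only, gave -0.17 for GILZ KO and 0.21 for GILZ TG against WT (adjusted p = 0.892 and 0.780 with edgeR).

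**Figure D4:**
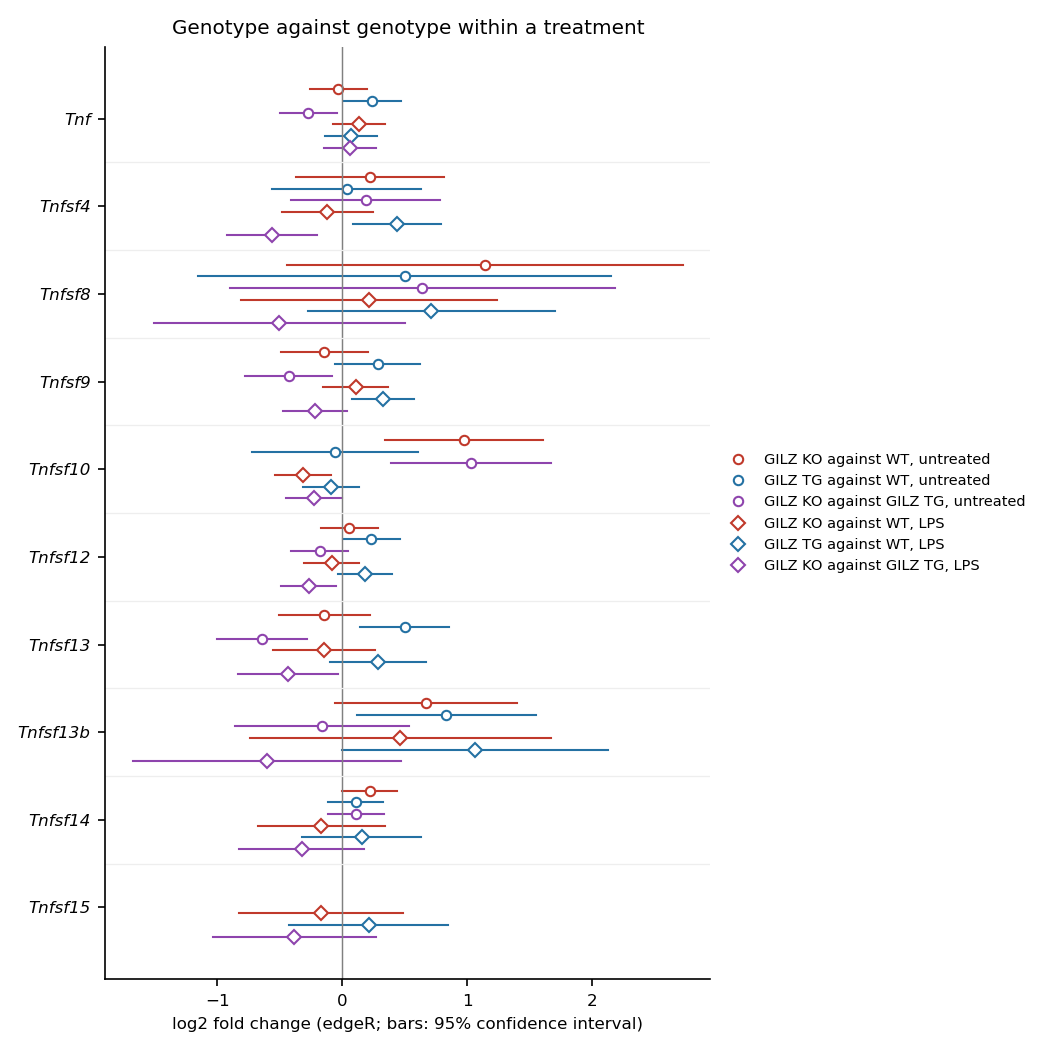
Log2 differences between genotypes (edgeR, with 95% confidence intervals) of the 10 ligands, untreated and after LPS, with open symbols for an adjusted p of 0.05 or more. All symbols are open, and Tnfsf15 has no untreated value.

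The third comparison asked whether the LPS response of a ligand differed by genotype, as a difference of log2 fold changes in 1 model of the 18 libraries. No member passed (edgeR), against 0.0152% of all genes called for GILZ KO minus WT, 0.00759% for GILZ TG minus WT and 0.121% for GILZ KO minus GILZ TG. At an unadjusted p under 0.05 there were 1, 0 and 3 members, and 838, 407 and 1306 of all 13169 genes tested. Tnfsf10 had the widest gap, -1.33 for GILZ KO minus WT (SE 0.28, 95% confidence interval -1.93 to -0.74, adjusted p = 0.297 with edgeR) and -1.29 for GILZ KO minus GILZ TG (SE 0.29, -1.90 to -0.67, adjusted p = 0.0921), while GILZ TG minus WT was -0.04. DESeq2 called both gaps of GILZ KO (adjusted p = 0.00422 and 0.00393). The gap contained the higher untreated Tnfsf10 of GILZ KO and its lower level after LPS. Tnf gave 0.14 for GILZ KO minus WT (adjusted p = 0.939 with edgeR), -0.17 for GILZ TG minus WT (adjusted p = 1.00) and 0.31 for GILZ KO minus GILZ TG (adjusted p = 0.524). Tnfsf4 gave -0.37, 0.42 and -0.79 (adjusted p = 0.924, 1.00 and 0.423).

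Receptors of these ligands were found on both sides of the LPS response, in shares close to those of all genes. Of 16 receptor genes listed, 13 had enough counts, of which 5 rose in each genotype and 5 fell in WT and GILZ KO and 4 in GILZ TG, where 33.2% to 33.6% of all genes were higher and 35.1% to 35.4% lower. Tnfrsf1b, which encodes TNFR2, rose most in TPM, from a mean of 122 to 1341 TPM in WT, from 129.6 to 1449 TPM in GILZ KO and from 120.1 to 1148 TPM in GILZ TG (log2 fold change 4.09, 4.12 and 3.89). Tnfrsf1a, which encodes TNFR1, rose by a log2 fold change of 1.51, 1.38 and 1.46. Tnfrsf8, the receptor of Tnfsf8, rose by 4.13, 4.25 and 4.25, and Tnfrsf14, a receptor of Tnfsf14, by 2.99, 2.69 and 2.90, the opposite of its ligand. Tnfrsf9, the receptor of Tnfsf9, rose by 1.32, 1.21 and 0.78, and in GILZ TG the change on log2(TPM + 1) was 0.16 (adjusted p = 0.277 with limma).

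The receptors that fell did so by less than Tnfrsf1b, Tnfrsf8 and Tnfrsf14 rose, whereas Tnfrsf22 fell by more than Tnfrsf1a and Tnfrsf9 rose. Tnfrsf22 and Tnfrsf23, TRAIL decoy receptors of the mouse that are similar in sequence and may share reads, had log2 fold changes of -1.61, -1.72 and -1.78 and of -0.92, -1.26 and -0.97. Tnfrsf12a, which encodes FN14, had -0.82 in WT and -1.06 in GILZ KO, and -0.39 in GILZ TG, where it did not pass (adjusted p = 0.0914 with edgeR). Tnfrsf10b, the TRAIL death receptor of the mouse, and Tnfrsf13b, a receptor of APRIL and BAFF, fell by 0.16 to 0.32 in log2. In GILZ KO neither passed with DESeq2 (Tnfrsf10b -0.22, adjusted p = 0.0633, and Tnfrsf13b -0.13, adjusted p = 0.0988), and in GILZ TG neither passed with replicate 3 as the only library (-0.36, adjusted p = 0.0772, and -0.20, adjusted p = 0.185). Leaving out GILZ KO LPS replicate 2 ended both GILZ KO calls, leaving out GILZ KO LPS replicate 3 or untreated replicate 1 or 2 ended that of Tnfrsf13b (adjusted p = 0.0743 to 0.161 over all these), and leaving out GILZ TG LPS replicate 1 ended that of Tnfrsf10b in GILZ TG (adjusted p = 0.0786). Between genotypes Tnfrsf10b and Tnfrsf13b were the 2 of 12 receptors tested that passed, in GILZ KO against GILZ TG only, untreated and after LPS. Of all genes, 4.94% passed in that contrast untreated and 2.60% after LPS. Tnfrsf10b had 9.79, 10.6 and 11.1 TPM in untreated GILZ KO against 5.86, 6.41 and 6.60 TPM in GILZ TG, with WT between at 8.60, 8.55 and 7.31 TPM. The log2 difference was 0.70 (adjusted p = 0.00361 with edgeR) and after LPS 0.74 (adjusted p = 0.00983). With replicate 3 as the only GILZ TG library the differences were of similar size, 0.62 and 0.76, and did not pass (adjusted p = 0.0794 and 0.118). After LPS the difference was 0.67 without GILZ KO replicate 1, 0.72 without GILZ KO replicate 3 and 0.68 without GILZ TG replicate 1, each short of the threshold (adjusted p = 0.0718, 0.0504 and 0.0506). Tnfrsf13b differed by 0.26 (adjusted p = 0.0301 with edgeR) and 0.41 (adjusted p = 0.0212). The untreated call was lost without GILZ KO replicate 1 or 2 or GILZ TG replicate 1 or 2 (0.23 to 0.27, adjusted p = 0.0660 to 0.122), and the LPS call without any 1 library other than GILZ TG replicate 3 (0.37 to 0.45, adjusted p = 0.0594 to 0.116) and with limma on log2(TPM + 1) (0.41, adjusted p = 0.0638). With replicate 3 as the only GILZ TG library Tnfrsf13b differed by 0.26 (adjusted p = 0.190) and 0.34 (adjusted p = 0.315).

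**Figure D5:**
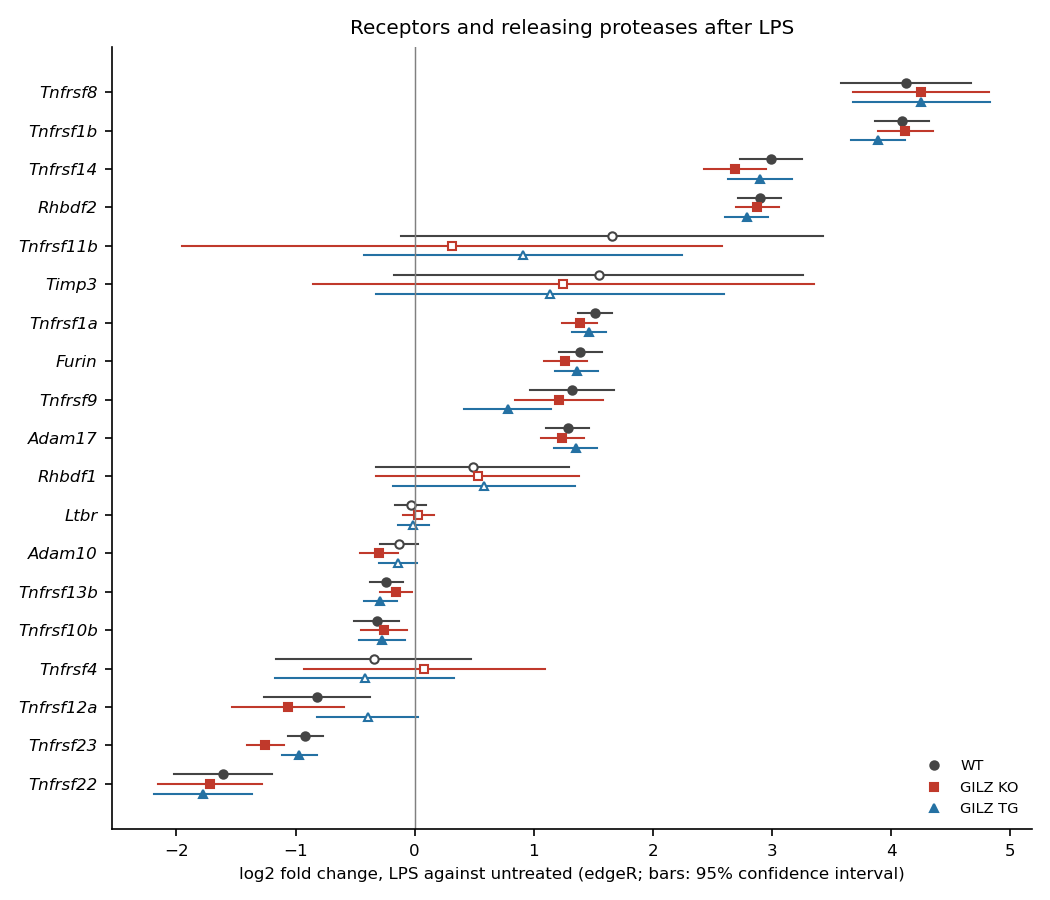
Log2 fold change of LPS against untreated (edgeR, with 95% confidence intervals) for the receptors and the genes that release the ligands in WT, GILZ KO and GILZ TG, with filled symbols for an adjusted p under 0.05. Tnfrsf1b and Tnfrsf8 lie near 4, and Tnfrsf22 lies lowest.

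Of 6 genes for proteases that release the ligands and for their regulators, 3 rose in every genotype, against 33.2% to 33.6% of all genes. Adam10, another sheddase, fell in GILZ KO (-0.30, adjusted p = 0.00193 with edgeR), as did 35.4% of all genes. Adam10 gave -0.13 in WT and -0.14 in GILZ TG without passing, and the difference of GILZ KO minus WT was -0.17 (adjusted p = 0.867). Rhbdf2, which carries the TNF sheddase to the cell surface, rose from 33.7 to 160.1 TPM in WT (log2 fold change 2.90 in WT, 2.87 in GILZ KO and 2.79 in GILZ TG). Adam17, that sheddase, rose by 1.28, 1.24 and 1.35, and Furin, a proprotein convertase, by 1.39, 1.27 and 1.36. Between genotypes only Adam17 and Adam10 passed. They were higher in untreated GILZ KO than in GILZ TG (0.28 and 0.31, adjusted p = 0.0204 and 0.0225 with edgeR), where 4.94% of all genes passed. Both calls were lost when any 1 library of these groups other than GILZ TG replicate 3 was left out (adjusted p = 0.0658 to 0.104). With replicate 3 as the only GILZ TG library the differences were 0.19 and 0.24. Of 8 other ligands of the family, 3 had enough counts to be tested, each only through the LPS libraries, where they are high, so that their passing is no support for a rise of the family. Lta, the neighbour of Tnf, went from 0.32, 0.51 and 0.21 TPM in WT to 4.17, 3.38 and 3.99 TPM, with a log2 fold change of 4.07 (adjusted p = 1.05e-08 with edgeR), 3.90 (4.34e-08) in GILZ KO and 4.88 (5.02e-09) in GILZ TG. Ltb, which encodes lymphotoxin beta, gave 1.51 in WT (adjusted p = 0.0172 with edgeR), 2.19 in GILZ KO (adjusted p = 0.00263) and 1.02 in GILZ TG (adjusted p = 0.0603), from 1 to 21 counts a library. In WT it was 0.21 on log2(TPM + 1) (adjusted p = 0.263 with limma), and it did not pass without untreated replicate 1 or 2 or LPS replicate 2 or 3 (1.15 to 1.47, adjusted p = 0.0503 to 0.0880 with edgeR). Tnfsf18 had 14 to 40 counts in LPS libraries and 0 or 1 in untreated ones.

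The genes whose log2(TPM + 1) was most like that of each member over the 18 libraries are given as a description. The libraries differ in treatment and depth, so a high r need not mean a likeness within a treatment. For Tnf they were Pim1, Ccl3 and Nfkbiz, for Tnfsf10 Sp140, Gbp3 and Irgm1, all at a Pearson r of 0.999. For Tnfsf15 they were Hdac1 (0.995), Lipg (0.994) and Ccl22 (0.993). For Tnfsf4 they were Ppp1r10 (0.994), a gene without a symbol (0.992) and Gnb4 (0.992). For Tnfsf8 they were Sowahc (0.982), Ccl17 (0.980) and Wars (0.979). For Tnfsf14, which fell, Elmo2 and Plekho1 (both 0.996) led, and for Tnfsf12 Echs1 (0.983), Lair1 (0.982) and Slc35b1 (0.981). Tnfsf9, Tnfsf13 and Tnfsf13b had looser likeness, with highest values of 0.868 for H2-Ab1, 0.939 for Fibp and 0.752 for Efemp2.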

How the data were processed

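Poly(A) RNA of 18 BMM libraries was sequenced in single reads of 75 nt from a directional library kit. Per the labels, reads were handled with FastQC 0.11.2 and the GRCm38 mouse genome, and the authors' comparisons were made with DESeq2 1.40.2. For each library the authors deposited expected counts and TPM per gene. Their tables of fold changes and p-values between groups were read for gene symbols and identifiers only. Rows without a gene identifier, present in 14 libraries, were left out. Expected counts were rounded and tested with the edgeR 4.0.16 quasi-likelihood test (filterByExpr, TMM, Benjamini-Hochberg, threshold 0.05) in R 4.3.3, with all 18 libraries in 1 fit of 6 groups for LPS and for differences of the LPS response, and with 9 libraries per treatment for the genotypes. Standard errors were the log2 fold change over the square root of F. DESeq2 1.42.0 and limma 3.58.1 on log2(TPM + 1) and log2(TPM + 0.1) were alternatives. Levels between genes were compared in TPM only. The scripts were tested on simulated data. The study describes its libraries as independent preparations from 3 mice per group, and the labels do not tie a replicate number to an animal. The tests did not pair libraries of the same number, and a replicate block was an alternative. In the fit of 18 libraries the block paired same-numbered untreated and LPS libraries within each genotype. In the fits of 9 libraries it was shared over the genotypes. Deviations of same-numbered untreated and LPS libraries from their group means correlated at 0.266, 0.397 and 0.605 in GILZ TG. In WT and GILZ KO they correlated at -0.033 to 0.264.

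The members, gene lists and tests were chosen with earlier results of these data known. Named genes were the members, Tsc22d3, and genes of the ligand, receptor and protease lists that passed a threshold. For each member, some or all of the 3 genes with the highest Pearson r, among those averaging at least 5 TPM, were also named. Promoter windows came from RefSeq on GRCm38.p6.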

Additional observations from a re-analysis of the deposited data

How the results depend on the processing

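The count of 8 members changed by LPS was 8 under most alternatives in each genotype, 9 on log2(TPM + 1) and log2(TPM + 0.1) in GILZ KO and 9 in GILZ TG with a replicate block, and 7 to 8 in WT, 8 in GILZ KO and 8 to 9 in GILZ TG when single libraries were left out. For the genotypes, 1 member instead of 0 was called in GILZ KO against GILZ TG untreated with DESeq2, without the filter and with all 18 libraries in 1 fit, in the same contrast after LPS with DESeq2 and without the filter, in GILZ TG against WT after LPS with GILZ TG replicate 3 alone, and in the difference of the LPS response of GILZ KO minus WT with DESeq2 and of GILZ KO minus GILZ TG with DESeq2 and without the filter. Leaving out 1 library gave 0 to 1 in GILZ TG against WT untreated, in GILZ KO against GILZ TG in both treatments and in GILZ KO minus GILZ TG. In many of these settings more of all genes were called too. In GILZ KO against GILZ TG, DESeq2 called 1218 instead of 623 untreated and 715 instead of 316 after LPS, where no filter gave 822. For GILZ KO minus WT and GILZ KO minus GILZ TG, DESeq2 called 21 instead of 2 and 131 instead of 16. Leaving out GILZ TG replicate 3 gave 1306 untreated and 1403 after LPS in GILZ KO against GILZ TG. In untreated GILZ TG against WT it gave 665 instead of 81. The cause was not tested. Of the values of single genes, 2289 kept direction and side of the threshold, 61 no longer passed, 22 newly passed and 40 changed sign.

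The sign of small values changed as follows. On log2(TPM + 1) and log2(TPM + 0.1), Tnfsf13b after LPS was -0.19 and -0.45 in WT and -0.17 and -0.32 in GILZ TG, and Tnf of untreated GILZ KO against WT was 0.0188 and 0.0189. With TPM centred on its median gene, Tnfsf13b after LPS in GILZ KO was 0.29. With replicate 3 as the only GILZ TG library, Tnfsf13b after LPS was -0.55, Tnfsf4 and Tnfsf10 of untreated GILZ TG against WT were -0.0654 and 0.11, Tnfsf8 of untreated GILZ KO against GILZ TG was -0.34, Tnfsf13 and Tnfsf14 of GILZ TG against WT after LPS were -0.17 and -0.12, and Tnf, Tnfsf13 and Tnfsf13b of GILZ KO against GILZ TG after LPS were -0.13, 0.0256 and 0.44. That setting and the centred TPM were chosen after seeing the data. With single libraries left out, Tnfsf13b after LPS ranged from -0.21 to 0.45 in WT, -0.18 to 0.10 in GILZ KO and -0.12 to 0.68 in GILZ TG. Untreated GILZ KO against WT ranged from -0.11 to 0.0921 for Tnf and -0.009 to 0.55 for Tnfsf4. Untreated GILZ TG against WT ranged from -0.20 to 0.36 for Tnfsf4, -0.45 to 0.89 for Tnfsf8 and -0.21 to 0.071 for Tnfsf10, and untreated GILZ KO against GILZ TG from -0.34 to 0.0863 for Tnfsf13b. After LPS, GILZ KO against WT ranged from -0.25 to 0.0002 for Tnfsf4, -0.14 to 0.0233 for Tnfsf12 and -0.36 to 0.16 for Tnfsf15, GILZ TG against WT from -0.0319 to 0.15 for Tnf, -0.14 to 1.05 for Tnfsf8, -0.15 to 0.0073 for Tnfsf10 and -0.14 to 0.55 for Tnfsf15, and GILZ KO against GILZ TG from -0.0156 to 0.17 for Tnf and -0.84 to 0.35 for Tnfsf8. The LPS response of Tnfsf10 in GILZ TG minus WT ranged from -0.17 to 0.13.

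Counts of all genes called moved by more than 1.5 times in the genotype contrasts: 12 to between 5 and 79 for untreated GILZ KO against WT, 81 to between 16 and 665 for GILZ TG against WT, 623 to between 34 and 1306 for GILZ KO against GILZ TG, and after LPS 10 to between 4 and 100, 56 to between 15 and 1067, and 316 to between 24 and 1403. Same-numbered libraries correlated above 0.1 in 2 of 18 pairs of genotypes and in 4 of 9 pairs of treatments. Of those 4, 3 were the GILZ TG pairs and 1 was WT replicate 1 (0.264). With so few libraries a group, low correlations cannot show that the numbers of WT and GILZ KO mark no shared preparation. With a replicate block the differences of the LPS response counted 8, 2 and 144 genes instead of 2, 1 and 16, and Tnfsf13 after LPS in GILZ TG was -0.38 (adjusted p = 0.0161 with edgeR), the 1 call on a named gene that the block changed. Low counts limited Tnfsf8, Tnfsf10 and Tnfsf15 in untreated libraries and Tnfsf13b in both treatments.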
